A study of Mus musculus with 9 samples.

Results

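The genes described here encode the MHC class II chains and the proteins that load them with peptide. They are the 3 chain genes H2-Aa, H2-Ab1 and H2-Eb1, the invariant chain gene Cd74, the H2-DM genes H2-DMa, H2-DMb1 and H2-DMb2, the H2-DO genes H2-Oa and H2-Ob, and the transactivator gene Ciita. These 10 of the 28764 gene symbols listed were chosen by name, with earlier results of these data known, and all 10 were found. RNA was measured in phagocytes of the peritoneal wall of Cx3cr1gfp/+ Ccr2rfp/+ mice, F1 animals with 1 reporter allele at each of these 2 chemokine receptor genes. All animals had received 50 µg of Dextran-Cascade Blue into a vein the day before and were perfused before the tissue was digested for 20 minutes. Every population was taken from CD11b-positive, Ly6G-negative cells stained for I-A/I-E, the class II molecules themselves.

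Double-negative cells, 85 to 90% of that gate, lacked both reporters and surface class II and were positive for dextran; the labels give them as the bulk of the sessile macrophages resident in the tissue. CCR2-RFP cells, 10 to 15% of it, were class II positive with only the Ccr2 reporter, and the labels call them migratory monocytes of the tissue. CX3CR1-GFP cells, 0.5 to 1.5% of it, were class II positive with only the Cx3cr1 reporter, and are named among the sessile resident macrophages. Each of the 3 populations gave 3 libraries, from sorts 1, 2A and 2B. P-values measure only the spread between these sorted samples. No group was untreated or free of reporter alleles, since all animals shared the genotype and the dextran, and the age of the animals is not given in the sources used here.

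An MHC class II molecule pairs an alpha chain with a beta chain and shows peptides from internalised material to CD4 T cells. New pairs assemble on the invariant chain, which fills the groove and directs them to late endosomes, where proteases trim it down to a short remnant. H2-DM takes that remnant out and favours peptides that bind stably, and H2-DO holds H2-DM back. Ciita, which does not bind DNA itself, joins factors already sitting on conserved promoter elements named S, X and Y and switches on the chain, invariant chain and loading genes together. Tissue macrophages differ widely in how much class II they carry, while dendritic cells and B cells carry much.

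The shared promoter elements can be read in the sequences. RefSeq windows (GRCm38.p6, 250 bases before to 50 after a gene start) were read for 7 of the 10 genes. Cd74 was left out, and H2-Ab1 and Ciita had no window. The capitals mark 2 sets of letters, X (A, NN, AAC, NN and ATGATG in a row, N being any base) and Y (GATTGG, the CCAAT box read on the other strand), both searched on both strands, with no overlap between them. The X letters were written after these windows had been read, so their presence here is a description. Within 300-base windows, X was found in 14 of 32544 (0.043%) and Y in 5234 (16.1%). X followed by Y within 40 bases on 1 strand was found in 4 windows (0.0123%), those of H2-Eb1, H2-DMb1, H2-DMb2 and H2-Ob. The segments are 66 bases long, 5′ to 3′ on the gene's strand, and are shown for the chains and the loading genes that the results turn on.
H2-Eb1 (chr17:34305757-34305822, plus strand): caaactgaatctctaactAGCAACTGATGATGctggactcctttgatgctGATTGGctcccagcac
H2-DMb1 (chr17:34153079-34153144, plus strand): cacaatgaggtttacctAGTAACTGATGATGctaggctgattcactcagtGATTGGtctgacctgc
H2-DMb2 (chr17:34145108-34145173, plus strand): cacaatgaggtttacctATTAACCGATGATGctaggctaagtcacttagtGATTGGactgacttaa
H2-Ob (chr17:34238797-34238862, plus strand): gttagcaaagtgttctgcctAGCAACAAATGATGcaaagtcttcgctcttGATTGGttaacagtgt
H2-Aa (chr17:34287857-34287922, minus strand): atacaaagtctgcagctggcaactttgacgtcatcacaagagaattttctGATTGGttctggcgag
H2-Oa (chr17:34092285-34092350, plus strand): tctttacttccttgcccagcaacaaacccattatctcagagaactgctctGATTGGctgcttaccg

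In these segments 19 bases separate X from Y in H2-DMb1 and H2-DMb2, 18 in H2-Eb1 and 16 in H2-Ob. H2-Aa and H2-Oa hold the Y letters only, and H2-DMa holds them at base -199 from the second of its 2 annotated starts. The H2-DMb1 and H2-DMb2 segments differ at 9 of 66 positions. Absence of the X letters says only that these exact letters are not in the window.

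Mean levels were highest in CCR2-RFP cells for all 10 genes, and for 9 of them, all but H2-Oa, the CX3CR1-GFP mean lay above the double-negative mean. H2-DMb2 overlapped between those 2 populations, and H2-Oa was listed at 0 in both. The spacing differed from gene to gene. For the chains and Cd74 the CX3CR1-GFP mean lay between 66.0 and 69.4% of the way from double-negative to CCR2-RFP on the log2 scale. For H2-Ob it lay at 74.9%, for Ciita at 49.5%, for H2-DMa at 45.2%, for H2-DMb1 at 40.1%, and for H2-DMb2 at 2.69%, next to the double-negative level. All levels below are TPM, which is per transcript length and so can be compared between genes, and fold changes are differences of mean log2(TPM + 1). In sorted bulk samples, fewer cells expressing a gene and less RNA of it per cell cannot be told apart.

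**Figure D1:**
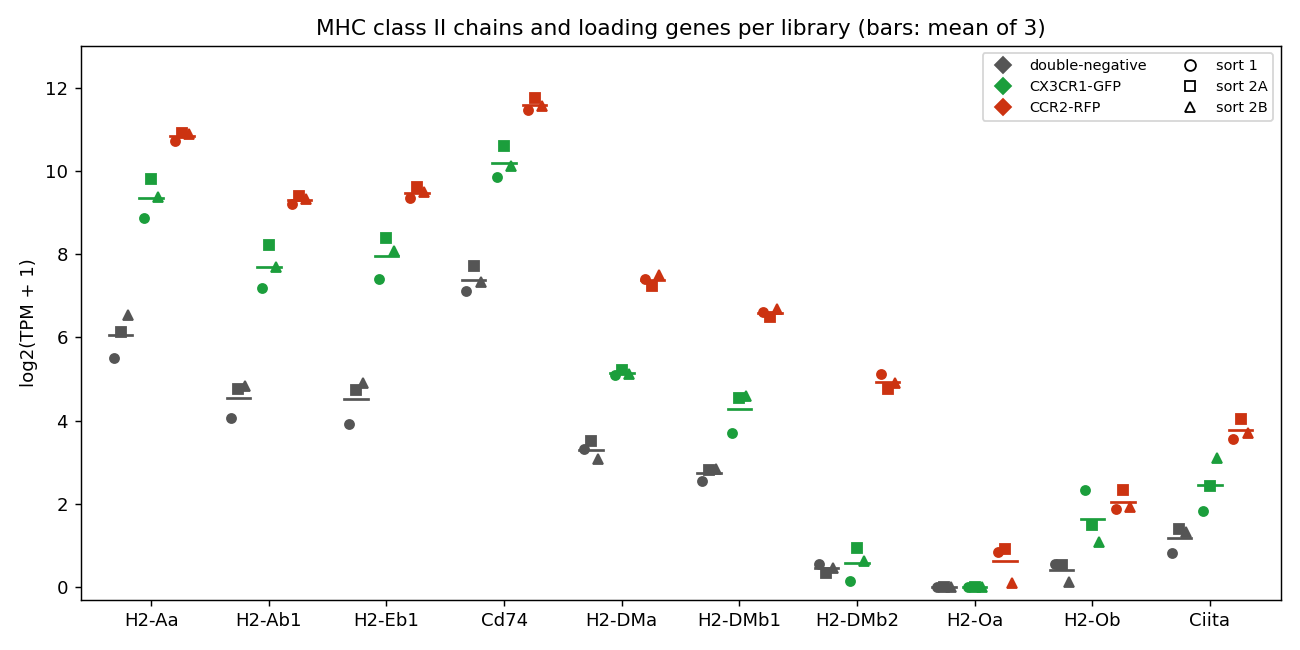
TPM of each of the 10 genes in every library, as log2(TPM + 1), with double-negative in grey, CX3CR1-GFP in green and CCR2-RFP in red; point shapes give the sort and bars are means. The chains, Cd74 and H2-DM separate all 3 populations, whereas H2-DMb2 in CX3CR1-GFP cells (0.108 to 0.929 TPM) overlaps double-negative cells and H2-Ob overlaps between the 2 class II positive populations.

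Surface class II was part of the gate that parted double-negative cells from the others, so chain levels against them describe the sort. H2-Aa encodes the I-A alpha chain. It stood at 44.3, 68.7 and 91.7 TPM in double-negative cells of sorts 1, 2A and 2B. In CCR2-RFP cells it was 1682, 1937 and 1904 TPM, and in CX3CR1-GFP cells 467, 893 and 658 TPM. No 2 populations overlapped, and chain mRNA was also measured in the cells sorted as negative. H2-Ab1, its beta partner, was 15.7, 25.9 and 27.4 TPM in double-negative cells, 586, 674 and 641 TPM in CCR2-RFP cells, and 144, 295 and 204 TPM in CX3CR1-GFP cells. H2-Eb1, the I-E beta chain, was 14.2, 25.5 and 28.7 TPM, then 645, 779 and 714 TPM, then 169, 333 and 270 TPM in the same order. The 3 chains followed the same order of libraries. Sort 1 was lowest in every population, and sort 2A was highest in both class II positive ones. H2-Ea-ps, which is annotated as a polymorphic pseudogene and would supply the I-E alpha partner, was listed at 0 in all 9 libraries.

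The difference between CX3CR1-GFP and CCR2-RFP cells was not used by the gate, since both were sorted as class II positive. H2-Aa was 1.50 lower in CX3CR1-GFP cells on the log2 scale (log2 fold change -1.50, SE 0.278, limma adjusted p = 0.00281), with a mean of 36.6% of the CCR2-RFP mean. H2-Ab1 gave -1.62 (SE 0.267, limma adjusted p = 0.00139) and H2-Eb1 gave -1.52 (SE 0.285, limma adjusted p = 0.00307). All 3 CX3CR1-GFP libraries lay below all 3 CCR2-RFP libraries for each chain. The proportions between chains differed by small amounts. H2-Aa per H2-Ab1 was 3.25, 3.02 and 3.23 in CX3CR1-GFP cells and 2.87, 2.87 and 2.97 in CCR2-RFP cells, a difference in mean log2 ratio of 0.12 with no overlap (exact two-sided permutation p = 0.1, adjusted p = 0.175 over 7 ratios). With 3 libraries against 3, 0.1 is the smallest p this test can give, so none of the 7 ratios could pass. H2-Eb1 per H2-Ab1 differed by 0.10 with overlap (exact permutation p = 0.2, adjusted p = 0.28).

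Skeletal muscle transcripts were high in the class II positive libraries of sort 2A, the sort with the most chain mRNA in these cells. Acta1 was 148 TPM in CCR2-RFP 2A and 201 TPM in CX3CR1-GFP 2A, and at most 38.2 TPM in the other 7 libraries, double-negative 2A among them. Whether muscle RNA bears on the chain levels was not tested. Without the 3 libraries of sort 2A the differences between CX3CR1-GFP and CCR2-RFP cells were -1.69 for H2-Aa, -1.83 for H2-Ab1 and -1.66 for H2-Eb1, each still called by limma (adjusted p = 0.0106, 0.00362 and 0.0124).

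Cd74, the chaperone of the new chains, was the most abundant of the 10 genes in every population. It was 137, 209 and 159 TPM in double-negative cells, 2826, 3448 and 3015 TPM in CCR2-RFP cells, and 917, 1550 and 1114 TPM in CX3CR1-GFP cells. The populations did not overlap, and CX3CR1-GFP lay below CCR2-RFP by a log2 fold change of -1.40 (SE 0.215, limma adjusted p = 0.000871). Per class II chain (the mean of H2-Aa and H2-Ab1), Cd74 was 3.0, 2.61 and 2.59 in CX3CR1-GFP cells and 2.49, 2.64 and 2.37 in CCR2-RFP cells. These ratios overlapped (difference 0.13 in log2, exact permutation p = 0.3, adjusted p = 0.35). In double-negative cells the same ratio was 4.58, 4.41 and 2.66, and the lowest of these fell within the CX3CR1-GFP range.

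H2-DM, the peptide editor, was more unequal between the 2 class II positive populations than the chains were. H2-DMa, its alpha chain, was 8.97, 10.4 and 7.42 TPM in double-negative cells, 167, 150 and 178 TPM in CCR2-RFP cells, and 33.1, 36.2 and 33.7 TPM in CX3CR1-GFP cells. The CX3CR1-GFP libraries were within 1.10 times of each other for H2-DMa, while the same 3 libraries differed 1.91-fold for H2-Aa. CX3CR1-GFP lay below CCR2-RFP by -2.23 (SE 0.149, limma adjusted p = 6.71e-06) and above double-negative cells by 1.84 (limma adjusted p = 0.00034). H2-DM staining was not part of the sort, but its level against double-negative cells moves with the class II gate. H2-DMb1, the main beta gene, was 4.81, 6.04 and 6.20 TPM in double-negative cells, 96.4, 89.1 and 101 TPM in CCR2-RFP cells, and 12.0, 22.5 and 23.1 TPM in CX3CR1-GFP cells. It was lower in CX3CR1-GFP than in CCR2-RFP cells by -2.31 (SE 0.230, limma adjusted p = 5.68e-05) and higher than in double-negative cells by 1.55 (limma adjusted p = 0.00579). Without sort 2A the second of these, 1.45, was not called (limma adjusted p = 0.0744).

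H2-DMb2, the neighbouring second beta gene, was found mainly in CCR2-RFP libraries, at 33.6, 26.3 and 28.9 TPM. It was 0.472, 0.268 and 0.376 TPM in double-negative cells and 0.108, 0.929 and 0.544 TPM in CX3CR1-GFP cells, below 1 TPM in all 6. The filter on low values therefore kept it through the CCR2-RFP libraries alone. CX3CR1-GFP differed from CCR2-RFP by -4.35 (SE 0.231, limma adjusted p = 2.57e-06) and from double-negative by 0.12 with overlap (limma adjusted p = 0.862). The filter set the direction of the difference from CCR2-RFP cells, so that difference is a description. Of the beta mRNA, H2-DMb2 made up 25.9, 22.8 and 22.2% in CCR2-RFP cells, 8.94, 4.26 and 5.72% in double-negative cells, and 0.893, 3.96 and 2.31% in CX3CR1-GFP cells. The CCR2-RFP share, 23.6% ± 1.97 (SD, n = 3), lay above every other library, and the highest CX3CR1-GFP share lay below the lowest double-negative one.

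**Figure D2:**
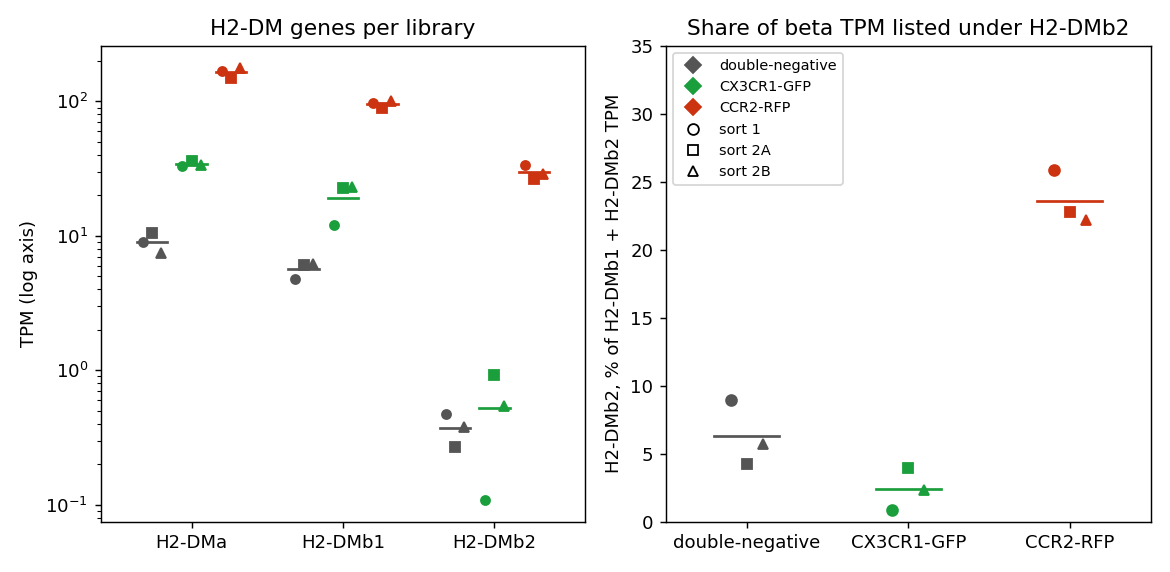
H2-DM mRNA by library: levels of H2-DMa, H2-DMb1 and H2-DMb2 in TPM on a log axis, and H2-DMb2 as a percent of H2-DMb1 plus H2-DMb2, with points for libraries (shape gives the sort) and bars for means. H2-DMb2 gives 22.2 to 25.9% of beta mRNA in CCR2-RFP cells and at most 8.94% in the other libraries.

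The genes lie 9.8 kb apart at their starts and are close copies, which bears on this split. Their coding sequences have 783 bases each and are identical at 751 positions (95.9%), with 32 differences. Of those, 17 fall in a single 60-base stretch of exon 2, shown here from GENCODE M21 transcripts (GRCm38) with the differing bases in capitals because reads across it tell the copies apart.
H2-DMb1 (chr17:34155585-34155644, plus strand): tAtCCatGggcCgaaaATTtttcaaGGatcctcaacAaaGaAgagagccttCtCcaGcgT
H2-DMb2 (chr17:34147803-34147862, plus strand): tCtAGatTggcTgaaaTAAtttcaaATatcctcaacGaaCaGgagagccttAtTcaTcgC
Of the 31-base words of H2-DMb1 transcripts, 37.6% (517 of 1374) also occur in H2-DMb2, and of the 75-base words, 19.1% (254 of 1330). How the deposited values divided reads from shared stretches cannot be seen in TPM, so the split is uncertain to that extent. The sum of both beta genes does not depend on it, and it was lower in CX3CR1-GFP than in CCR2-RFP cells by -2.66 (limma adjusted p = 2.72e-05).

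Markers of dendritic cells differed between the class II positive populations in both directions. Of 12 fixed markers, 10 were tested, and CX3CR1-GFP cells were lower than CCR2-RFP cells for 7 and higher for 1, where 17.3% of all genes were lower and 8.96% higher. Xcr1, Clec9a, Itgax, Flt3 and Dpp4 are among the 7 and passed the filter on low values only through CCR2-RFP libraries, so the count is not read as a result. The summed level ranged from 181 to 217 TPM in CCR2-RFP libraries, 92.0 to 117 in CX3CR1-GFP libraries and 79.3 to 155 in double-negative libraries. Sirpa and Cd209a had the highest means of the list, and no comparison passed for Sirpa. Cd209a was 79.2, 121 and 79.4 TPM in CCR2-RFP cells, 5.30, 7.51 and 6.95 TPM in CX3CR1-GFP cells, and 33.9 ± 21.4 TPM (SD, n = 3) in double-negative cells. The next markers were named after their values were seen. Itgax (CD11c) was 8.31, 8.58 and 9.34 TPM in CCR2-RFP cells and at most 1.35 TPM elsewhere, and Zbtb46, a factor of conventional dendritic cells, was between 1.26 and 2.98 TPM in all 9 libraries. Siglech, a lectin of plasmacytoid dendritic cells, was the marker that ran the other way, at 3.35, 1.33 and 1.20 TPM in CCR2-RFP cells, 37.8, 43.1 and 24.6 TPM in CX3CR1-GFP cells and 28.4, 43.9 and 23.1 TPM in double-negative cells. CX3CR1-GFP against double-negative cells gave no dendritic marker higher and 1 lower of 10 (1.16 and 1.61% of all genes called higher and lower). The lower was Cd209a (limma adjusted p = 0.0134). No marker of the list was at 0 in all libraries.

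Most macrophage and monocyte markers were lower in CCR2-RFP cells than in either other population. Of 11, CX3CR1-GFP cells were higher than CCR2-RFP cells for 7 and lower for 2 (8.96 and 17.3% of all genes; list median 0.85), and CCR2-RFP cells were lower than double-negative cells for 7 and higher for 3 (9.88 and 14.9% of all genes; median -1.29). CX3CR1-GFP against double-negative cells gave none higher and 2 lower (1.16 and 1.61% of all genes; median -0.27). The 3 markers that CCR2-RFP cells had at higher levels were Lyz2, Itgam and Cd14. Lyz2 and Itgam were also the 2 that were lower in CX3CR1-GFP against CCR2-RFP cells. Lyz2 and C1qc had the highest means of the list. Lyz2 was 2116 ± 272 TPM in CCR2-RFP, 1080 ± 102 TPM in CX3CR1-GFP and 1300 ± 189 TPM in double-negative cells (SD, n = 3). C1qc was 74.4 ± 5.76, 223 ± 23.8 and 336 ± 15.5 TPM in the same order. Fcgr1, the high-affinity IgG receptor (named after its values were seen), was 2.01, 0.106 and 0.267 TPM in CCR2-RFP cells and 11.9, 14.7 and 10.5 TPM in CX3CR1-GFP cells. T and NK cell markers summed to 6.28 to 10.4 TPM in CCR2-RFP, 1.84 to 5.94 in CX3CR1-GFP and 1.14 to 2.05 in double-negative libraries. Of these, Il7r was 2.17, 4.13 and 3.02 TPM in CCR2-RFP cells and at most 0.527 TPM elsewhere. The part of any of these cell types in the class II levels was not tested.

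Within each library, H2-DMa per class II chain was 0.108, 0.0609 and 0.0782 in CX3CR1-GFP cells and 0.147, 0.115 and 0.140 in CCR2-RFP cells. The libraries did not overlap, and the mean ratio was 1.66-fold lower in CX3CR1-GFP cells (difference -0.73 in log2, exact permutation p = 0.1, adjusted p = 0.175). In double-negative cells it was 0.299, 0.220 and 0.125, a wide range that reached above both. H2-DM beta per alpha was 0.367, 0.647 and 0.700 in CX3CR1-GFP cells and 0.779, 0.768 and 0.729 in CCR2-RFP cells, also without overlap (difference -0.46, exact permutation p = 0.1, adjusted p = 0.175). The lowest value came from the CX3CR1-GFP library of sort 1, without which the difference was -0.17.

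H2-DO, the brake on H2-DM, was low everywhere. H2-Ob, its beta chain, was 0.470, 0.448 and 0.0816 TPM in double-negative cells, 2.65, 4.07 and 2.79 TPM in CCR2-RFP cells, and 4.0, 1.82 and 1.11 TPM in CX3CR1-GFP cells. The class II positive populations overlapped (-0.41, SE 0.313, 95% interval -1.11 to 0.28, limma adjusted p = 0.370). Against double-negative cells, H2-Ob was higher in CCR2-RFP cells by 1.64 (limma adjusted p = 0.00313). The CX3CR1-GFP difference of 1.23 was not called although no library overlapped (limma adjusted p = 0.0750), and it was called without the CX3CR1-GFP library of sort 2B (limma adjusted p = 0.0388). H2-Oa, the alpha chain, was listed at 0 in all 6 double-negative and CX3CR1-GFP libraries and at 0.786, 0.898 and 0.0699 TPM in CCR2-RFP cells, too low to be tested.

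H2-Ob per H2-DM beta was 0.335, 0.0817 and 0.0512 in CX3CR1-GFP cells and 0.0212, 0.0361 and 0.0222 in CCR2-RFP cells. The groups did not overlap and the means differed 4.35-fold (2.12 in log2, exact permutation p = 0.1, adjusted p = 0.175). The size rests on the CX3CR1-GFP library of sort 1, without which the difference was 1.33 in log2. B cells are known to express H2-DO, and B cell markers were highest in the same population. Their summed level over 12 markers was 2.40 to 6.69 TPM in CX3CR1-GFP, 0.489 to 1.19 in CCR2-RFP and 0.868 to 1.64 in double-negative libraries. Cd79b was 3.54, 2.60 and 1.44 TPM in CX3CR1-GFP cells and at most 0.597 TPM in the other 6 libraries. It alone of the 12 passed the filter on low values, and only through CX3CR1-GFP libraries. Ebf1 was 0.737, 2.17 and 0.441 TPM in CX3CR1-GFP cells, not in the order of sorts that H2-Ob followed. Any part of B cells in the H2-Ob level was not tested. Cd79a, a B cell receptor component, was listed at 0 in all 3 CX3CR1-GFP libraries, and Blk in all 9.

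**Figure D3:**
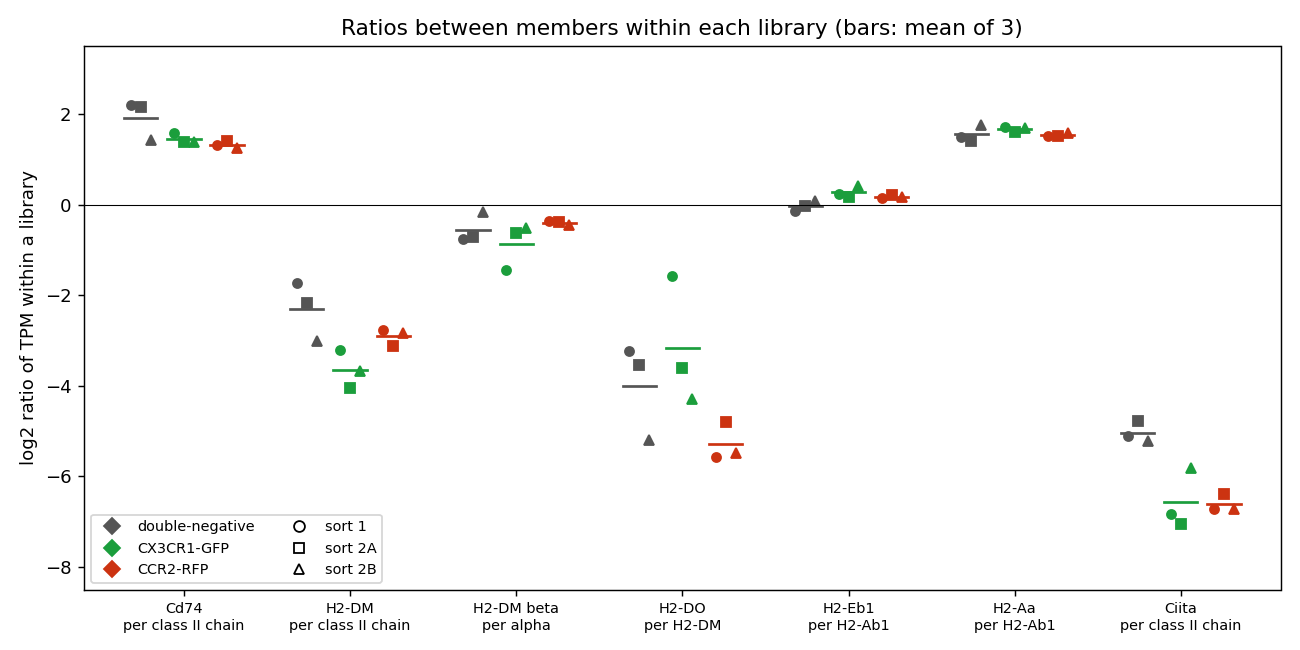
The 7 within-library log2 ratios by population, with points for libraries and bars for means. Relative to CCR2-RFP cells, CX3CR1-GFP cells show lower H2-DM per chain and higher H2-Ob per H2-DM beta with no overlapping library, while Cd74 and Ciita per chain overlap.

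Ciita, the transactivator, was 0.771, 1.62 and 1.50 TPM in double-negative cells, 10.7, 15.4 and 12.1 TPM in CCR2-RFP cells, and 2.57, 4.41 and 7.58 TPM in CX3CR1-GFP cells. No populations overlapped. It was higher in CCR2-RFP cells than in the double-negative by 2.59 (limma adjusted p = 0.000172) and lower in CX3CR1-GFP than in CCR2-RFP cells by -1.31 (SE 0.312, limma adjusted p = 0.0112). The latter was not called without sort 2A (-1.16, limma adjusted p = 0.0910). CX3CR1-GFP lay above double-negative cells by 1.28, which was not called (limma adjusted p = 0.0647) unless the sort label was taken as a block (adjusted p = 0.0360), the filter was raised to 5 TPM (adjusted p = 0.0476) or the CX3CR1-GFP library of sort 1 was left out (adjusted p = 0.0278). Ciita per class II chain was 0.00875, 0.00759 and 0.0178 in CX3CR1-GFP cells and 0.00953, 0.0119 and 0.00955 in CCR2-RFP cells, a difference of 0.04 in log2 with overlap (exact permutation p = 1). In double-negative cells it was 0.0270 to 0.0363, above every class II positive library.

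Taking the genes together, 9 of the 10 passed the filter on low values, H2-Oa being the exception and H2-DMb2 passing only through CCR2-RFP cells. The filter thus set the direction of H2-DMb2 in both comparisons with CCR2-RFP cells. H2-DMb2 is included in the counts of those comparisons, but its calls and lack of overlap there are a description. Lower levels in CX3CR1-GFP than in CCR2-RFP cells were called for 8 of 9, where 17.3% of all 10136 genes were called lower and 8.96% higher, and H2-Ob did not pass. The same 8 showed no overlap between libraries, as did 25.2% of all genes in that direction. The median log2 fold change was -1.52 over the 9 genes and -0.11 over all genes. Against double-negative cells, CCR2-RFP cells were higher for 9 of 9 (14.9% of all genes higher and 9.88% lower, median 4.21 against 0.09), none of them overlapping (25.8% of all genes). CX3CR1-GFP cells were higher for 6 of 9 (1.16% of all genes higher and 1.61% lower, median 1.84 against -0.03), with 8 not overlapping (8.22%), and H2-DMb2, H2-Ob and Ciita did not pass. The 3 comparisons share libraries, and those against double-negative cells follow the class II gate.

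**Figure D4:**
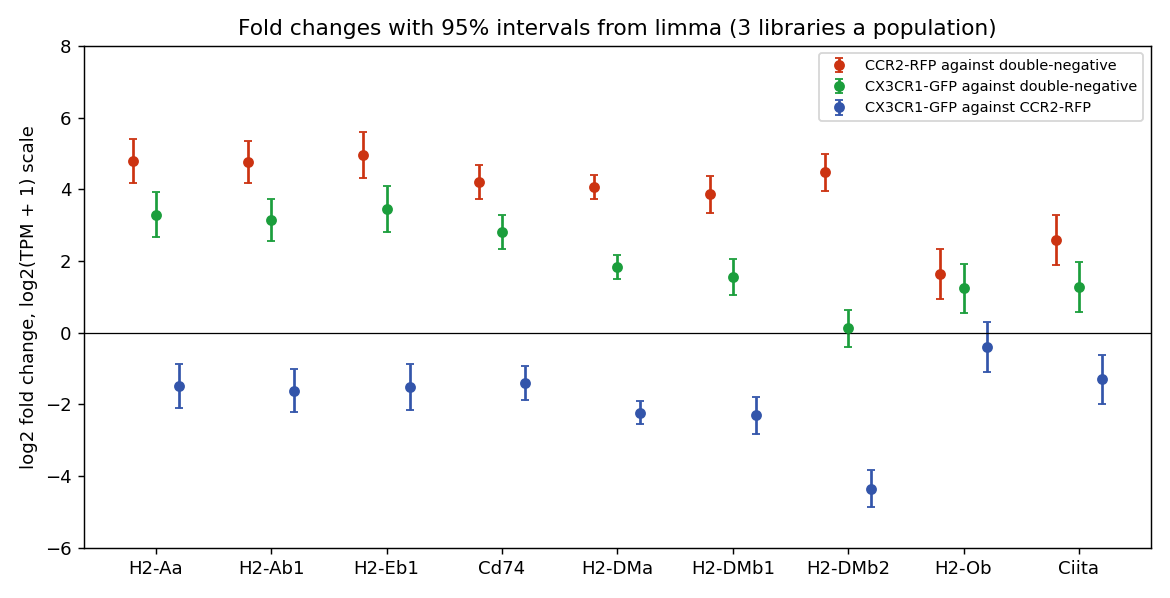
Log2 fold change of each tested gene, on log2(TPM + 1), in the 3 comparisons, with 95% intervals from limma. H2-DMb2 stands apart, at 4.47 for CCR2-RFP against double-negative but 0.12 for CX3CR1-GFP against double-negative, and H2-Ob is the gene whose interval for CX3CR1-GFP against CCR2-RFP (-1.11 to 0.28) includes 0.

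Apart from Ciita and Cd74, the genes lie within 1 stretch of mouse chromosome 17 (GRCm38, GENCODE M21 annotation). From H2-Oa (34092340-34095234) the order runs through H2-DMa (34119541-34139101), H2-DMb2 (34143307-34151555), H2-DMb1 (34153072-34160230), H2-Ob (34238903-34254414), H2-Ab1 (34257689-34269419) and H2-Aa (34282744-34287823, on the minus strand) to H2-Eb1 (34305867-34316674). Ciita lies on chromosome 16 (10480059-10528418). Of 11 neighbours fixed as a list, 8 were tested, and CX3CR1-GFP cells were lower than CCR2-RFP cells for Psmb8 and Psmb9, and higher for Btnl2, and 5 did not pass, where 26.3% of all genes were called in either direction. The list's median was -0.15. Psmb8, an immunoproteasome subunit used by class I presentation, was 18.3, 15.5 and 21.6 TPM in CCR2-RFP cells and 6.42, 9.50 and 5.39 TPM in CX3CR1-GFP cells (-1.28, limma adjusted p = 0.00134). Against double-negative cells, 2 neighbours were called in CCR2-RFP cells (Psmb8 higher, Btnl2 lower; 24.8% of all genes called) and none in CX3CR1-GFP cells (2.77% of all genes called). Exons of H2-DMa share 360 bases (10.4%) with the opposite-strand gene Brd2, those of H2-Oa 321 bases (22.8%) with BC051537, and those of Ciita 329 bases (3.45%) with Dexi, and whether counting used strand is not given. Brd2 itself was 33.4 ± 3.05, 35.6 ± 5.49 and 32.0 ± 6.22 TPM (SD, n = 3) in double-negative, CCR2-RFP and CX3CR1-GFP cells.

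**Figure D5:**
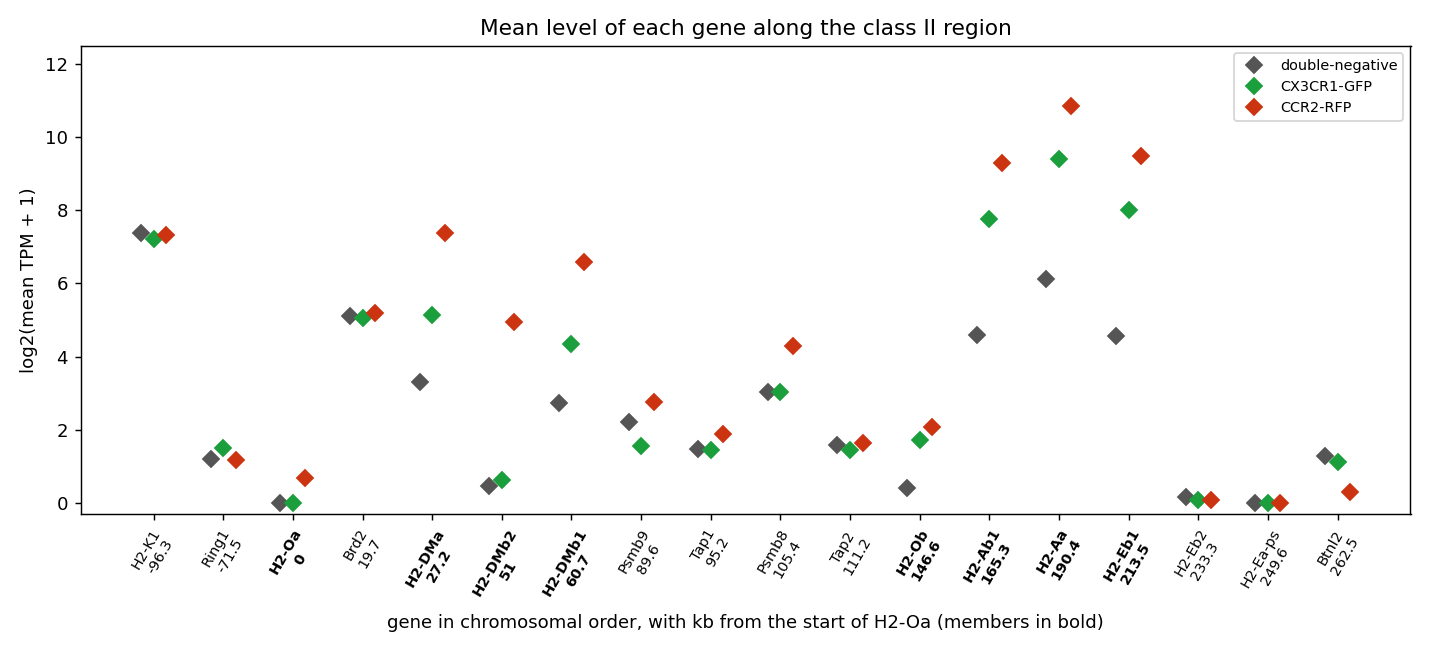
Log2(mean TPM + 1) of each gene along the class II stretch, in chromosomal order with kb from the start of H2-Oa, for the 3 populations; the genes described here are in bold. H2-DMa, H2-DMb1 and the chains differ between populations. Among the neighbours, Brd2 stays near 32.0 to 35.6 TPM in all 3, while Psmb8 and Psmb9 have their highest mean and Btnl2 its lowest in CCR2-RFP cells.

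For the factors that hold Ciita on the promoter, 10 genes were listed (RFX, NF-Y and CREB subunits and the acetyltransferases they recruit). By limma, none was called between CX3CR1-GFP and CCR2-RFP cells, where 26.3% of all genes were called (list median 0.27), nor between CX3CR1-GFP and double-negative cells, where 2.77% were (list median 0.21). In CCR2-RFP against double-negative cells, Rfxap, an RFX subunit, was higher (0.69, adjusted p = 0.0474) and Nfya, an NF-Y subunit, was lower. The other 8 of 10 did not pass, where 14.9% of all genes were called higher and 9.88% lower (list median 0.12). Both calls were lost under many alternatives, 15 of 21 for Rfxap and 10 of 22 for Nfya.

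Of 13 regulators listed upstream of Ciita, 12 were tested, and CX3CR1-GFP cells were lower than CCR2-RFP cells for 4 and higher for 1, where 17.3% of all genes were lower and 8.96% higher (list median -0.26). Irf4, an interferon regulatory factor of dendritic cells and alternatively activated macrophages, was 26.1, 26 and 22.3 TPM in CCR2-RFP cells and 9.59, 6.41 and 11.4 TPM in CX3CR1-GFP cells (-1.37, limma adjusted p = 0.000714). Its relative Irf8 ran the other way, at 2.76, 1.29 and 3.34 TPM in CCR2-RFP cells and 9.89, 12.6 and 12.2 TPM in CX3CR1-GFP cells (1.91, limma adjusted p = 0.000354). Jak2, which carries the interferon-gamma receptor signal, was lower in CX3CR1-GFP cells (-0.87, adjusted p = 0.00796). So was Irf2 (-0.66, adjusted p = 0.0358), a call lost in 13 of 22 alternatives. CCR2-RFP cells exceeded double-negative cells for Irf4, Jak2 and Irf2 and were lower for Irf8, with 8 of 12 not passed (24.8% of all genes called; median 0.13), and none of the 12 was called between CX3CR1-GFP and double-negative cells (2.77% of all genes; median 0.11).

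Genes for enzymes that process antigen and the invariant chain in the lysosome were split in direction. Of 12 tested, CX3CR1-GFP cells were higher than CCR2-RFP cells for 4, lower for 5, and 3 did not pass (8.96% of all genes higher, 17.3% lower; list median -0.15). Legumain (Lgmn), an asparagine endopeptidase, was 165 ± 16.3 TPM in CX3CR1-GFP and 47.6 ± 8.29 TPM in CCR2-RFP cells (1.78, limma adjusted p = 2.53e-05), and 209 ± 10.9 TPM in double-negative cells. Ctsc and Ctsb, which encode cathepsins C and B, were also higher (1.06 and 0.92, limma adjusted p = 0.000132 and 0.00115). The aspartic protease gene Napsa, like H2-DMb2, was found mainly in CCR2-RFP cells, at 12.6, 11.7 and 15.0 TPM. It was 0.463, 1.31 and 1.55 TPM in CX3CR1-GFP cells, and 0.251, 0.353 and 0.267 TPM in double-negative cells (CX3CR1-GFP against CCR2-RFP -2.77, limma adjusted p = 2.60e-05). Napsa passed the filter on low values only through the CCR2-RFP libraries, so this difference is a description. The 2 proteases best known for cutting the invariant chain, named after their values were seen, moved apart. Ctss (cathepsin S) was 155 ± 17.9 TPM in CX3CR1-GFP and 236 ± 32.7 TPM in CCR2-RFP cells (-0.60, limma adjusted p = 0.0133), and Ctsl (cathepsin L) was 19.4 ± 2.34 and 8.22 ± 3.14 TPM (1.20, limma adjusted p = 0.00674). In CCR2-RFP against double-negative cells 2 of the 12 were higher and 5 lower (14.9 and 9.88% of all genes; median -0.12), and in CX3CR1-GFP against double-negative cells none was higher and 3 were lower (1.16 and 1.61% of all genes; median -0.37).

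Genes of class II traffic and turnover gave 4 higher, 4 lower and 6 not passed of 14 tested between CX3CR1-GFP and CCR2-RFP cells (8.96% of all genes higher, 17.3% lower; list median -0.18). Cd83, which protects surface class II from ubiquitin-driven removal, was 174, 229 and 214 TPM in CX3CR1-GFP cells and 84.9, 89.4 and 86.8 TPM in CCR2-RFP cells (1.22, limma adjusted p = 0.000162). It exceeded double-negative cells as well (0.99, limma adjusted p = 0.00521), so its order among populations was not that of the chains. March1, the ubiquitin ligase that Cd83 opposes (named after its values were seen), was 10.8 ± 0.615 TPM in CX3CR1-GFP, 13.4 ± 0.656 TPM in CCR2-RFP and 17.2 ± 2.75 TPM in double-negative cells, and no comparison passed. Cd63 and Lamp2, proteins of the late endosome, were higher in CX3CR1-GFP than in CCR2-RFP cells (2.89 and 0.66, limma adjusted p = 4.64e-05 and 0.00319), and Cd37, a tetraspanin of leukocytes, was lower (-1.09, limma adjusted p = 0.000211). Against double-negative cells, CCR2-RFP cells gave 1 higher, 3 lower and 10 not passed (14.9 and 9.88% of all genes higher and lower; median -0.17) and CX3CR1-GFP cells 2 higher, 2 lower and 10 not passed (1.16 and 1.61%; median -0.28). Of 5 receptors and accessory presentation genes, Mr1 and Cd1d1 were tested and neither was called in any comparison, with list medians of -0.09, -0.12 and -0.03.

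The genes with the most similar pattern to the chains, by Pearson's r over the 9 libraries with the mean log2(TPM + 1) of H2-Aa, H2-Ab1 and H2-Eb1, were Tifab (0.991), Stap1 (0.990), Mpeg1 (0.982), Bcl2a1b (0.980) and Il1b (0.980) among 2998 genes ranked. The points fall into 3 populations, so r mainly reflects their order. On the same measure Cd74 reached 0.995, H2-DMa 0.950, Ciita 0.948, H2-DMb1 0.945, H2-Ob 0.844 and H2-DMb2 0.755. Mpeg1, a pore-forming protein of phagocytes, was 24.3 ± 6.54, 149 ± 22.9 and 68.3 ± 12.1 TPM in double-negative, CCR2-RFP and CX3CR1-GFP cells.

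Listed TPM summed to 278579 to 382828 per library, and the row Siglece alone held 21.9 to 34.7% of it. Rescaling without that row and without ribosomal and mitochondrial genes moved the median of all genes between CX3CR1-GFP and CCR2-RFP cells from -0.11 to 0.12 and the share of genes called lower from 17.3 to 10.5%, and all 8 calls on the class II genes remained. The gate genes followed the titles: Ccr2 was 95.4, 111 and 115 TPM in CCR2-RFP cells and at most 6.68 TPM elsewhere, and Cx3cr1 was 6.51, 16.4 and 4.13 TPM in CX3CR1-GFP cells and listed at 0 elsewhere.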

How the data were processed

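RNA of 9 sorted samples was measured by paired reads of 75 bases from 1 ng of total RNA. The authors deposited TPM per gene symbol, a level per transcript length scaled to a common total, for which the submitters' processing notes name mm10 and the tools cutadapt 1.8.3, bcl2fastq 2.18 and Salmon 0.11.3. Annotation and strand settings were not given in the sources used here. Depth is unknown, as read counts cannot be had from TPM, and the number of libraries sets the precision.

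Libraries were grouped by title. The description field of 6 of them names the other reporter population, while the remaining label fields and the column headings side with the title. The design text says 3 mice were sorted as 3 replicates per group, so sort labels were read as animals. Same-sort libraries had correlations of their deviations of 0.0315 to 0.205 (9 pairs, 1 above 0.1).

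Values were log2(TPM + 1), for 10136 genes that reached 1 TPM in 3 or more of the 9 libraries. limma 3.58.1 (R 4.3.3) fitted a mean per population with an intensity trend, tested 3 contrasts on both sides with Benjamini-Hochberg adjustment, and called genes at adjusted p below 0.05. The fit was also tested on simulated data. Ratios within a library (0.1 TPM added where H2-Ob or Ciita enters) were tested by exact permutation in scipy 1.17.1. Promoter windows came from RefSeq, transcripts and positions from GENCODE M21.

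The members and lists were chosen with earlier results of these data known. Named genes were all 10 members, per pathway list up to 4 called genes with the smallest p (or the 2 with the highest mean), per cell type list the 2 with the highest mean and those at 0 everywhere, and the 5 genes most like the chains with at least 10 TPM, except where stated. Lists covered promoter factors, upstream regulators, region neighbours, lysosomal processing, traffic and turnover, accessory presentation, and markers of macrophages, dendritic cells, B cells, T and NK cells, and muscle among other tissue cells. Alternatives changed the pseudocount, filter, scaling, trend, block, populations fitted, fold threshold, the summing of H2-DMb1 and H2-DMb2, and the libraries used. Leaving out sort 2A was added after seeing the data.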

Additional observations from a re-analysis of the deposited data

How the results depend on the processing

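Over 22 alternatives, the 27 results for single class II genes gave 575 values. Of these, 569 kept their side of the threshold, 4 became called, 2 lost their call and no call reversed. H2-DMb2 in CX3CR1-GFP against double-negative cells was called in no alternative and did not keep its sign, ranging from -0.066 to 0.33. The 2 losses, H2-DMb1 against double-negative and Ciita against CCR2-RFP cells, came without sort 2A, which leaves 2 libraries per population. The 4 gains were Ciita and H2-Ob in CX3CR1-GFP against double-negative cells. The count called was 8 or 9 for CCR2-RFP against double-negative, 5 to 7 for CX3CR1-GFP against double-negative, and 6 to 8 for CX3CR1-GFP against CCR2-RFP. H2-DMb2 could not be tested without a CCR2-RFP library, since it then passed the filter in too few.

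With the sort label as a block, a paired analysis, the counts were 9, 7 and 8. Ciita above double-negative cells was the added call, and no other call on these genes changed. Each library's deviation correlated best with its own sort in 16 of 18 comparisons.

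Scaling moved the values. Between CX3CR1-GFP and CCR2-RFP cells the log2 fold change of H2-Aa was -1.06 with quantile normalization, and that of Cd74 was -1.09 after rescaling without Siglece, Rn18s, mitochondrial and ribosomal protein genes. Of the genes called between CX3CR1-GFP and CCR2-RFP cells, 65.9% were lower as deposited, 54.8% with median-of-ratios scaling, 51.1% with quantile normalization and 42.6% after that rescaling. For CCR2-RFP against double-negative cells the share lower was 39.8, 47.8, 50.6 and 54.2%, and for CX3CR1-GFP against double-negative cells 58.0, 50.0, 49.1 and 45.4%. The 281 genes called in the last comparison became 146 without the filter, 129, 126 and 138 without the double-negative library of sort 1, 2A and 2B, 165 without CX3CR1-GFP 2A, and 88 without sort 2A, where 0.354% of all genes were called higher in place of 1.16%. The 2513 called for CCR2-RFP against double-negative cells became 1652 without sort 2A and 1463 with a fold change of at least 2, and the 2666 for CX3CR1-GFP against CCR2-RFP became 1767 and 1514. Median log2 fold changes over all genes moved from -0.11 to -0.26 with the filter at 5 TPM for CX3CR1-GFP against CCR2-RFP, and from 0.09 to 0.19 for CCR2-RFP against double-negative cells.

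Ciita per class II chain had no stable direction between CX3CR1-GFP and CCR2-RFP cells, and ranged from -0.33 to 0.28 when each library was left out.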
